A study of Homo sapiens with 4 samples.

Results

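Immediate early genes are switched on within minutes of a stimulus, without new protein synthesis, largely through the kinase ERK and the transcription factors SRF, ELK and CREB that wait at their promoters. Their messages are short-lived, so the level in a growing culture reflects continuing signalling as well as message decay. In myeloid cells EGR1 is known for its part in monocyte differentiation, and NR4A1 and NR4A3 are known as restraints on myeloid leukemia. The set described here has 10 such genes in 3 families: the zinc finger transcription factors EGR1, EGR2, EGR3 and EGR4, the orphan nuclear receptors NR4A1, NR4A2 and NR4A3, and the immediate early response genes IER2, IER3 and IER5. The genes were chosen by name, and each is represented by the probe set with the highest mean log2 intensity among those annotated with that 1 symbol. Of the 10 genes, 9 were measured in this way, out of 18377 genes in all, and none was removed by a filter on low values. No probe set in the annotation used here names EGR2, which is not analysed here.

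The cells were MOLM-14, a monocytic cell line established from human acute myeloid leukemia (AML) that is known to carry a KMT2A fusion and an activated FLT3 receptor. All 4 samples were grown in medium with serum, itself an inducer of these genes. Of these, 2 received DMSO, the solvent, and the other 2 received 2 µM DZNep, an inhibitor of S-adenosylhomocysteine hydrolase used to deplete the Polycomb methyltransferase EZH2. Every sample was collected at 24 h. The question put to each gene is whether its message differed between drug and solvent at that time. Separate cultures are not stated for the biological replicates in the labels, so the spread behind every p-value here is that between these 4 samples and may be technical.

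Expression was measured on Affymetrix whole-transcript arrays, and values are log2 of the deposited intensity. Arrays of the same treatment differed over all genes with an SD of 0.20 (DMSO) and 0.14 (DZNep) in log2, and arrays of different treatment with one of 0.27 to 0.32. Array medians lay between 6.99 and 7.07. Of 12 myeloid and monocytic markers 10 were measured, with mean log2 intensities from 6.80 to 12.50 (lysozyme, LYZ), and their summed linear intensity was 12044 to 12125 with DMSO and 12826 to 13049 with DZNep. The sum weights the brightest markers, such as LYZ, most. LYZ (log2 fold change 0.53, limma adjusted p = 0.0114) and the receptor CSF1R (0.47, 0.0128) rose, and FLT3 fell from 11.94 and 11.79 to 10.93 and 10.91 (−0.94, 0.000535). These were the 3 with a limma adjusted p under 0.05 (30% of the 10, against 10.3% of all genes). By sign, 6 of the 10 markers were higher with DZNep and 4 lower. The part of these changes in the results below was not tested. The summed intensity of 7 T and NK cell markers was 1454 to 1499 with DMSO and 1330 to 1440 with DZNep, that of 4 B cell markers 446 to 491 and 457 to 460, that of 5 erythroid and megakaryocyte markers 544 to 637 and 598 to 602, and that of 6 fibroblast and epithelial markers 1101 to 1199 and 1162 to 1232. An array gives every probe set a background, so no marker reads 0. Not all of these markers were dim, however. Above the median of all genes lay 1 T and NK, 1 B cell, 1 erythroid or megakaryocyte and 3 fibroblast and epithelial markers. The brightest T and NK marker, NKG7, had 9.95 and 9.96 with DMSO and 9.63 and 9.85 with DZNep, and its sum weights it most. In bulk RNA, fewer cells with a message and less message per cell cannot be told apart.

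The 250 bases before the RefSeq transcription start are shown for EGR1, EGR4 and NR4A3, because they hold a match to the site of SRF (EGR1) or 2 or more to the core of the CREB site (all 3). Sequences are from RefSeq, build GRCh38.p14, and 7 of the 10 genes had such a window there (EGR2, with 3 annotated starts, among them). EGR3, NR4A2 and IER3 had no window, so their upstream bases were not searched. EGR1 is read from the plus strand at chr5:138465229-138465478, EGR4 from the minus strand at chr2:73293549-73293798, and NR4A3 from the plus strand at chr9:99821635-99821884. Each is written 5′ to 3′ and ends at the base before the start. Capitals mark the CArG box, the site of SRF, and TGACG, the core of the cAMP response element bound by CREB, read on either strand (CGTCA on the reverse).
EGR1: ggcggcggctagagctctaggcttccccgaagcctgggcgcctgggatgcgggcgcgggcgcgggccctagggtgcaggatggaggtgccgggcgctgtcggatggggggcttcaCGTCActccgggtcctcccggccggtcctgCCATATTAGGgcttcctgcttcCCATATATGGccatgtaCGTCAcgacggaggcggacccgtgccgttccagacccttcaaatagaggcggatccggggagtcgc
EGR4: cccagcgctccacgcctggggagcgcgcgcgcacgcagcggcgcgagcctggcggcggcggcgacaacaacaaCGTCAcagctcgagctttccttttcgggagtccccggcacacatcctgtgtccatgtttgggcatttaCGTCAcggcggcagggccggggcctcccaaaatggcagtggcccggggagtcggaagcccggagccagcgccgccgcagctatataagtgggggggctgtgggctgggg
NR4A3: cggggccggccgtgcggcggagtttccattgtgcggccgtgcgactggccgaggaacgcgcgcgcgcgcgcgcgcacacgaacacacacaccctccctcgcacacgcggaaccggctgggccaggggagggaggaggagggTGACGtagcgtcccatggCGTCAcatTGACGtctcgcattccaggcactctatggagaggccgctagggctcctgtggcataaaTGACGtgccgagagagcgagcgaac
The EGR1 window holds 2 CArG boxes and 2 TGACG cores, the EGR4 window 2 cores and no CArG box, and the NR4A3 window 4 cores and no CArG box. EGR2 was not measured, and its windows are not shown, though 1 of the 3 held 1 CArG box and 2 cores.

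Both NR4A1 windows and the IER5 window had no match to either motif, and the IER2 window had 1 TGACG core. The full element TGACGTCA, which contains the core, was in none of the windows of the measured genes. The EGR binding site GCGNGGGCG, searched on both strands, was found once in the EGR1 window. Over 35116 windows of the same length, 1.16% held a CArG box, 21.2% a TGACG core, 1.65% the full element and 8.41% an EGR site. A match describes letters in the window, and binding was not measured.

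**Figure D1:**
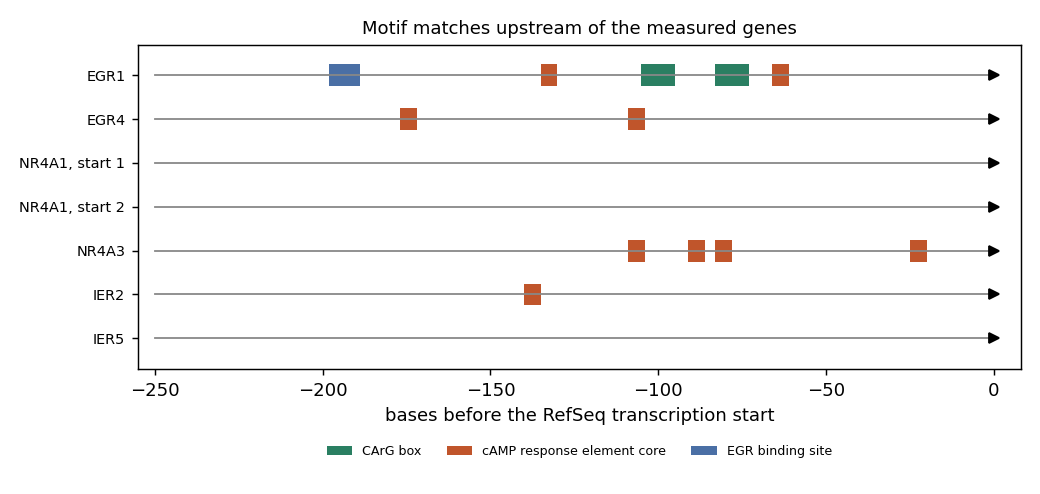
Positions of motif matches (coloured boxes) in the 250 bases before the RefSeq start (arrowhead) of the measured genes that have a window; the x axis is distance in bases from the start. EGR1 carries 2 CArG boxes, 2 TGACG cores and 1 EGR site, NR4A3 4 cores, and the windows of NR4A1 and IER5 no match.

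IER3 was the 1 measured member that passed the test, 1.59-fold higher with DZNep, and the other 8, EGR1 among them, did not pass. A gene was called at a Benjamini-Hochberg adjusted p under 0.05 over all genes tested (limma). The count of 1 of 9 was 11.1%, against 10.3% of all genes tested called in either direction (3.62% higher and 6.68% lower), so the share called among the members was near the background. An unadjusted p under 0.05 was found for 2 of the 9 (IER3 and EGR1), against 22.2% of all genes. The median log2 fold change over the 9 genes was 0.14, and that over all genes 0.02. DZNep and DMSO values did not overlap for 6 of the 9 (5 above and 1 below), against 49.7% of all genes (25.9% above and 23.9% below).

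**Figure D2:**
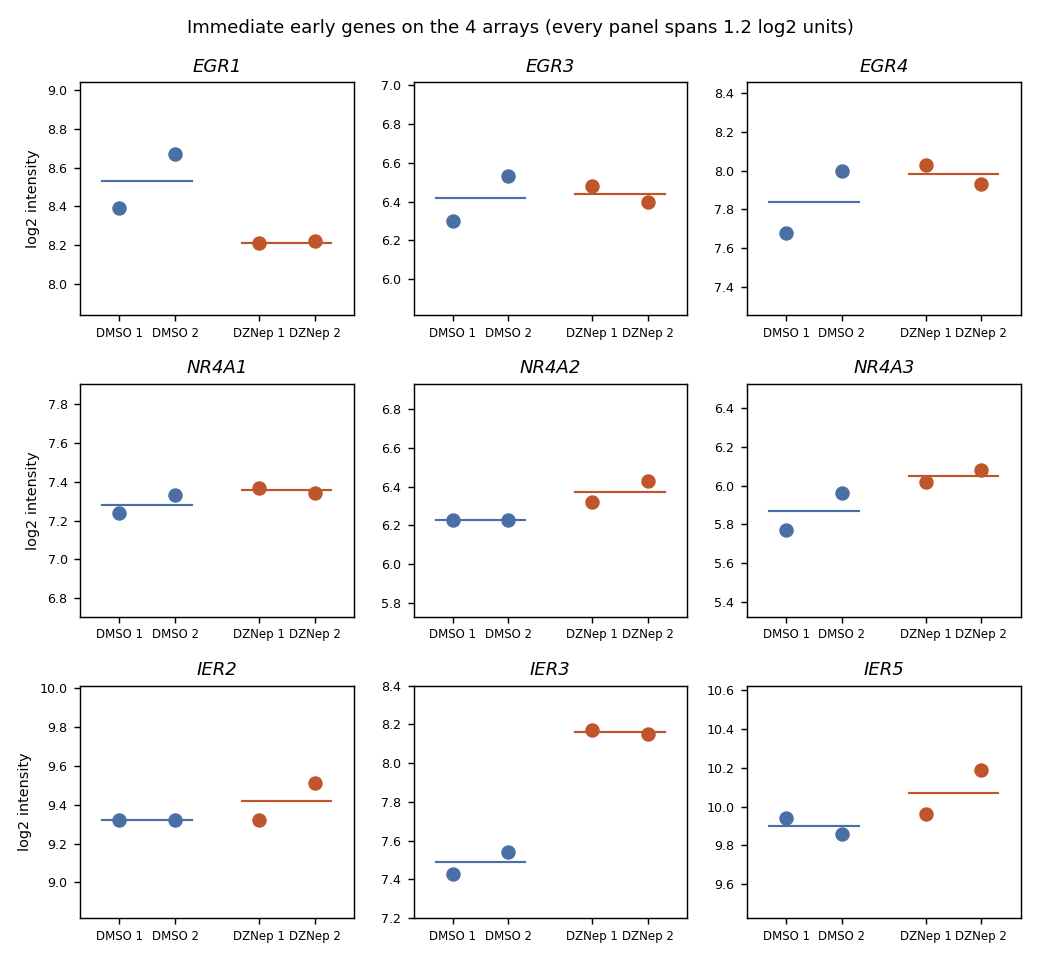
Log2 intensity (y axis) of the 9 measured genes on the 4 arrays (x axis), DMSO in blue and DZNep in orange, with the group mean as a line; every panel spans the same 1.2 log2 units. IER3 lies at 8.15 and 8.17 with DZNep against 7.43 and 7.54 with DMSO, and EGR1 is the 1 gene with both DZNep arrays below both DMSO arrays.

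EGR1, the founding member of the zinc finger family and a target of serum, growth factor and ERK signals, had a log2 intensity of 8.39 and 8.67 with DMSO and 8.21 and 8.22 with DZNep. Both DZNep arrays lay below both DMSO arrays, and the DMSO arrays lay farther from each other than DMSO replicate 1 lay from the DZNep arrays. The group means were 8.53 ± 0.20 and 8.21 ± 0.0035 (SD, n = 2 arrays each), a log2 fold change of −0.31 with a 95% interval of −0.57 to −0.06 (limma, unadjusted p = 0.0214, adjusted p = 0.128). The size of the EGR1 difference hung on the controls: it was −0.46 (limma adjusted p = 0.0307) without DMSO replicate 1 and −0.17 (0.241) without DMSO replicate 2.

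EGR3, known from lymphocyte and muscle spindle development, had 6.30 and 6.53 with DMSO and 6.48 and 6.40 with DZNep. Its DZNep values lay between its DMSO values. The log2 fold change was 0.02, with an interval of −0.22 to 0.27 (limma adjusted p = 0.942), and it turned to −0.01 or −0.02 under median centring, quantile or cyclic loess normalization. EGR4, a family member known from neurons and germ cells, had 7.68 and 8.0 with DMSO and 8.03 and 7.93 with DZNep. The groups overlapped, with DMSO replicate 1 the low array. The log2 fold change of EGR4 was 0.14, with an interval of −0.13 to 0.41 (limma adjusted p = 0.59), and leaving out DMSO replicate 1 or 2 gave −0.01 or 0.30.

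The 3 NR4A receptors, which bind DNA without a known classic ligand and are induced by cAMP, calcium and inflammatory signals, each had both DZNep arrays above both DMSO arrays, by small margins, and none passed the test. The same order of arrays was found for 25.9% of all genes. NR4A1 (Nur77) had 7.24 and 7.33 with DMSO and 7.37 and 7.34 with DZNep. NR4A2 (Nurr1) had 6.23 on both DMSO arrays and 6.32 and 6.43 with DZNep. NR4A3 (NOR1) had 5.77 and 5.96 with DMSO and 6.02 and 6.08 with DZNep. NR4A2 and NR4A3 lay below every array median (6.99 to 7.07) and among the dimmest 25% of genes. For NR4A1 the gap between the nearest arrays of the 2 groups was smaller than the gap between the DMSO arrays. The log2 fold changes were 0.07 (interval −0.14 to 0.28) for NR4A1, 0.14 (−0.07 to 0.36) for NR4A2 and 0.18 (−0.05 to 0.42) for NR4A3, with limma adjusted p of 0.755, 0.465 and 0.355. All 3 intervals hold 0, and their upper ends lie below the value of IER3. Leaving out DMSO replicate 1 or 2 gave 0.09 or 0.28 for NR4A3 and 0.03 or 0.11 for NR4A1.

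The IER genes are grouped by their rapid induction rather than by 1 shared protein fold: IER2 and IER5 are related nuclear proteins, IER5 being a regulator of the heat shock factor HSF1 through the phosphatase PP2A, whereas IER3 (IEX-1) is a small stress-inducible protein, a target of NF-κB and p53, that affects apoptosis and ERK signalling. IER3 had 7.43 and 7.54 with DMSO and 8.17 and 8.15 with DZNep. The groups were far apart relative to the spread within either. The group means were 7.49 ± 0.08 and 8.16 ± 0.02 (SD, n = 2 arrays each), a log2 fold change of 0.67 with an interval of 0.46 to 0.89 (limma, SE 0.10, adjusted p = 0.00257), larger in size than the change of 97.0% of all genes.

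IER3 has 3 probe sets with 1 symbol, and all 3 gave a like difference, of 0.65, 0.66 and 0.67. The annotation lists the same accessions for all 3, so they may not be independent measurements. The IER3 call held when any 1 array was left out, with log2 fold changes of 0.62 to 0.73 and limma adjusted p of 0.00197 to 0.0126.

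IER2 had 9.32 on both DMSO arrays and 9.32 and 9.51 with DZNep. Only DZNep replicate 2 stood higher. The log2 fold change of IER2 was 0.09, with an interval of −0.14 to 0.32 (limma adjusted p = 0.686), and it was 0.00 without DZNep replicate 2. IER5 had 9.94 and 9.86 with DMSO and 9.96 and 10.19 with DZNep. DZNep replicate 1 lay just above the higher DMSO array and replicate 2 clearly above it. The log2 fold change of IER5 was 0.17, with an interval of −0.07 to 0.42 (limma adjusted p = 0.421), and it was 0.06 without DZNep replicate 2 and 0.29 without DZNep replicate 1. The interval of IER3 did not overlap those of IER2 and IER5, and the difference between the genes was not tested.

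**Figure D3:**
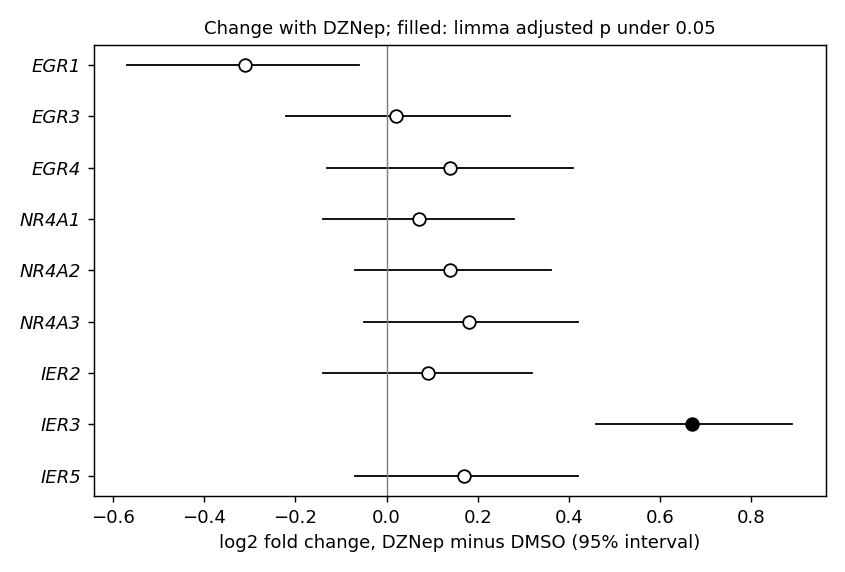
Log2 fold change, DZNep minus DMSO (x axis), of the 9 genes (y axis), with 95% intervals from the limma fit as lines; a filled point marks a limma adjusted p under 0.05. IER3, at 0.67, is the 1 filled point, and EGR1, at −0.31, is the 1 gene with a negative value.

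**Figure D4:**
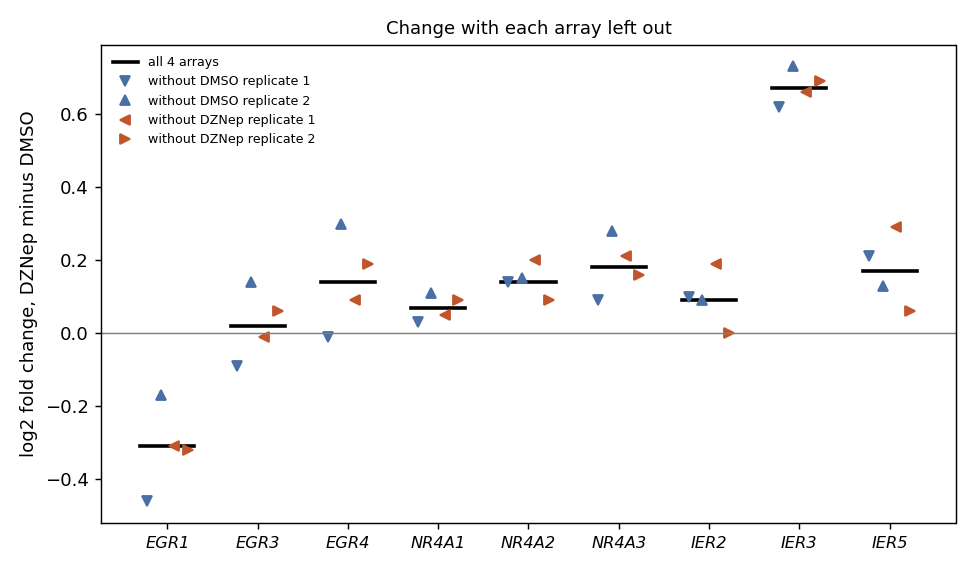
Log2 fold change (y axis) of each gene (x axis) with all 4 arrays (black line) and with 1 array left out (triangles, blue for a DMSO and orange for a DZNep array). IER3 stays between 0.62 and 0.73, EGR1 moves between −0.46 and −0.17, and values of EGR3 and EGR4 fall on both sides of 0.

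For the EGR and NR4A partners and the regulators of immediate early genes, the share called was not above that of all genes. The list of EGR and NR4A partners holds NAB1 and NAB2, corepressors that bind EGR proteins, and the retinoid X receptors, with which NR4A1 and NR4A2 can pair. None of its 5 genes was called by limma, against 10.3% of all genes, and 1 had an unadjusted p under 0.05. The median log2 fold change was −0.02, and it was 0.07 without DMSO replicate 1 and 0.08 without DZNep replicate 1. NAB2, itself induced by EGR1, had 7.96 and 7.90 with DMSO and 7.80 and 8.01 with DZNep. The 1 with an unadjusted p under 0.05 was RXRA, at 0.29 (limma adjusted p = 0.0869), which passed with an intensity trend (0.0459), under quantile normalization (0.0447) and without the dimmest 50% of genes (0.0353).

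Of 24 kinases, transcription factors and coactivators that regulate immediate early genes, 20 were measured. Of these, 1 rose and 1 fell (10.0%, near the 10.3% of all genes). The median was 0.05, and it was −0.01 without DMSO replicate 2 and −0.05 without the dimmest 50% of genes, where 3 rose. Without DMSO replicate 1 the number that rose was 2. SRF had a log2 fold change of −0.06 and CREB1 one of −0.10, and neither passed. ELK3, an ETS factor that partners SRF and can repress its targets, had 8.17 and 8.23 with DMSO and 8.78 on both DZNep arrays. It rose 1.49-fold (limma, log2 fold change 0.58, SE 0.09, adjusted p = 0.00479). RPS6KA2, a ribosomal S6 kinase downstream of ERK, had 8.19 and 7.78 with DMSO and 7.33 and 7.53 with DZNep, a fall of 0.56 on the log2 scale (limma adjusted p = 0.0357). Its call ended without DMSO replicate 1 (−0.35, limma adjusted p = 0.117) or DZNep replicate 1 (−0.46, 0.091), with 16 subtracted from every intensity (0.075), and with every probe set tested (0.101).

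A larger share of the other immediate early genes was called than of the EGR, NR4A and IER genes, a difference that was not tested. Of 48 listed 45 were measured, and 12 rose and 1 fell (28.9%, against 10.3% of all genes), with a median log2 fold change of 0.21. The number that rose was between 8 and 16 under all the alternatives run. The members and this list were chosen with earlier results of these data known, so the shares called are descriptions. NFKBIA, the inhibitor of NF-κB and itself an NF-κB target, had 8.70 and 8.75 with DMSO and 9.96 and 9.99 with DZNep, the largest rise of the list at 1.26 (limma adjusted p = 0.000102). RGS2, a brake on G protein signalling, had 8.28 and 7.90 with DMSO and 9.38 and 9.26 with DZNep, a rise of 1.23 (limma adjusted p = 0.000567). PTGS2, the inducible cyclooxygenase, rose by 0.68 (limma adjusted p = 0.0042).

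The 1 gene of that list that fell was RGS1, a relative of RGS2, with 7.91 and 7.54 with DMSO and 6.92 and 7.09 with DZNep. RGS1 fell by 0.72 (limma adjusted p = 0.00877). Leaving out DMSO replicate 2 raised the number of the list that fell to 5. FOS, an SRF target usually induced together with EGR1 and named here after its value was seen, had 8.79 and 8.81 with DMSO and 9.12 and 9.19 with DZNep. Both DZNep arrays were above both DMSO arrays for FOS and below them for EGR1. The log2 fold change of FOS was 0.35 (limma adjusted p = 0.0446), a call that ended when any 1 array was left out (0.0528 to 0.411). IER5L, the IER5-like gene, had 8.45 and 8.51 with DMSO and 8.81 and 8.69 with DZNep, and at 0.27 it did not pass (limma adjusted p = 0.123).

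Upstream windows were found for 34 of the 45 other immediate early genes. Of the 10 with a window that rose, 6 held a TGACG core, none the full element and 1 an EGR site. Of the 23 with a window that were not called, 11 held a core, 5 the full element and 5 an EGR site. No gene of either group held a CArG box, which was in 1.16% of all windows. None of the windows of these 34 genes held the CArG box found in the window of EGR1, and bases farther upstream were not read. A gene was counted if any of its windows matched, so these counts are not directly comparable with the shares of all windows.

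**Figure D5:**
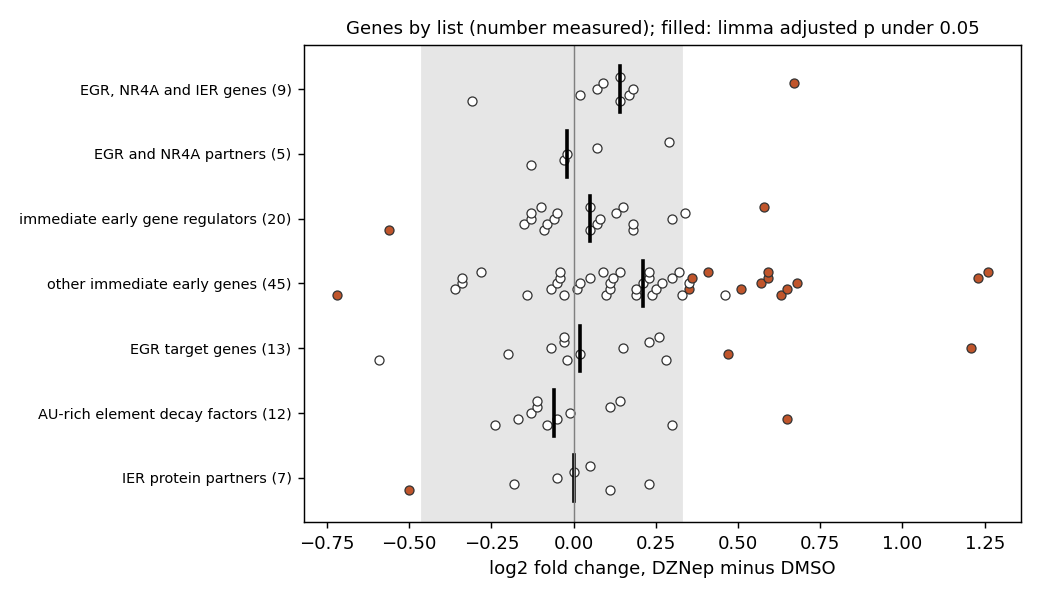
Log2 fold change, DZNep minus DMSO (x axis), of the genes of each list (points), with the number measured in brackets, the list median as a black bar, filled points for a limma adjusted p under 0.05, and the 5th to 95th percentile of all genes, −0.46 to 0.33, in grey. IER3 is the 1 EGR, NR4A or IER gene outside the grey band, and 13 of the 45 other immediate early genes are filled. The lists were chosen with earlier results of these data known.

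Genes acted on by EGR proteins, or acting on the messages and proteins of the set, were also read. Of 15 genes listed as EGR targets 13 were measured, and 2 rose and none fell (15.4%, against 10.3% of all genes). Under 7 of the 17 alternatives 1 fell, among them leaving out DMSO replicate 2 or either DZNep array, and either DZNep array left out also brought the number that rose to 1. The median was 0.02, and it ranged from −0.02 under quantile normalization to 0.15 and 0.25 without the dimmest 25% and 50% of genes, with 0.05 to 0.08 when 1 array was left out. GDF15, a stress cytokine named after its value was seen, had the largest negative value, −0.59 (limma adjusted p = 0.0826), with 7.82 and 7.13 with DMSO and 6.90 and 6.86 with DZNep. The place of ASPSCR1 on this list is uncertain, and it had a log2 fold change of −0.03. F3, tissue factor, the trigger of clotting, had 9.05 and 9.22 with DMSO and 10.38 and 10.31 with DZNep. It rose 2.31-fold (limma, log2 fold change 1.21, adjusted p = 0.000209). PDGFA, a growth factor chain, rose by 0.47 (limma adjusted p = 0.0121), a call that ended without either DZNep array (0.0631 and 0.0905).

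AU-rich elements in messages such as those of IER3 and FOS are bound by proteins, not all of which promote decay. Of 12 genes listed for such proteins and for message decay, 1 was called (8.33%, against 10.3% of all genes), and the median was −0.06. It was ZFP36L2, a promoter of decay, which rose by 0.65 (limma adjusted p = 0.00336). ZFP36L2 is also among the other immediate early genes. Of 7 partners of IER proteins, among them HSF1 and PP2A subunits, 1 was called (14.3%, against 10.3% of all genes), IER3IP1, an endoplasmic reticulum membrane protein named for binding IER3. IER3IP1 had 9.85 and 9.81 with DMSO and 9.38 and 9.28 with DZNep, a fall of 0.50 (limma adjusted p = 0.0106). That call ended without DZNep replicate 2 (0.0992) and with the mean of its 2 probe sets, at −0.27 (0.12).

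The genes most alike in pattern were sought for 1 gene of each family, by the root mean square difference of log2 deviations from the gene's own mean over the 4 arrays. For EGR1 they were MCM7 (0.006) and CCT5 (0.0072), which had log2 fold changes of −0.32 and −0.31. For NR4A1 they were MIR200A (0.0021) and REX1BD (0.0038), both at 0.07, and for IER2 they were ADAM23 (0.0043) and SLC4A10 (0.0064), at 0.09 and 0.08. Over 4 arrays this likeness is a description.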

How the data were processed

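Total RNA of 2 DMSO and 2 DZNep samples was hybridised to Affymetrix whole-transcript arrays, and groups were taken from the titles. The authors deposited 1 linear intensity per probe set and array, summarised with RMA, per the submitters' processing notes; no version, software or added constant is named there. Intensities start at 18.1 to 18.5 on every array; if a constant was added, dim genes have understated folds. Log2 was taken with no pseudocount or filter. Of 28869 probe sets, 19310 have 1 symbol in the platform annotation, 1752 have several and 7807 are not listed; the entrez IDs of 19279 were found in RefSeq and changed 0 symbols. The 18377 genes were fitted in R 4.3.3 using limma 3.58.1 (lmFit and eBayes, group alone in the model, two-sided tests, Benjamini-Hochberg over all genes). Degrees of freedom were 2 residual and 7.18 prior. For 2 against 2 the smallest exact permutation p is 0.333. In 10 simulations with 200 changed genes of 18377, it recovered 35.9% of changes of 0.5, 98.6% of 1 and 100% of 2, and 4.83% of calls were false. Fewer genes were changed there than the 1892 called in these data, and changes under 0.5 were not simulated.

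The members and lists were chosen with earlier results of these data known. Genes were named by rule: the members, and up to 4 called genes a list with the largest change (or the 1 largest where none passed). The rule also named 2 genes most alike to each of EGR1, NR4A1 and IER2. Other genes named are SRF, CREB1, NAB2, IER5L, ASPSCR1, GDF15, LYZ, CSF1R, FLT3, NKG7 and FOS, outside the rule. Motifs were searched in RefSeq upstream windows of 250 bases. Alternatives are listed with their effects in the closing section.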

Additional observations from a re-analysis of the deposited data

How the results depend on the processing

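IER3 was called under all 17 alternatives run (log2 fold change 0.62 to 0.73, limma adjusted p 1.21e-05 to 0.0126). No other member was called under any of them except EGR1 without DMSO replicate 1 (−0.46), so the count of members called was 1 to 2 with 1 array left out. EGR3 changed sign under quantile (−0.02) or cyclic loess (−0.02) normalization and with medians centred (−0.01). With 1 array left out, EGR3 ranged from −0.09 to 0.14 (negative without DMSO replicate 1 or DZNep replicate 1), EGR4 from −0.01 to 0.30 (negative without DMSO replicate 1), SLC4A10 from −0.01 to 0.18 and ADAM23 from 0.00 to 0.18 (both lowest without DZNep replicate 2). Over all genes, 665 were higher and 1227 lower. With every probe set tested, which adjusts over more tests, 388 were higher and 779 lower. With 1 array left out, 336 to 776 were higher and 734 to 1662 lower (336 higher without DZNep replicate 2, and 439 higher and 734 lower without DZNep replicate 1); the lone array of a group is then assumed to vary like the other group. With the replicate number as a block, 754 were higher and 1353 lower, no member changed its call, and FOS lost its call (limma adjusted p = 0.062). Deviations of same-numbered samples from their group means had a weak negative correlation over genes (−0.22). A crossed block, added after seeing the data, gave 1034 higher and 1690 lower. FOS also lost its call under median centring (0.0802), with 16 subtracted (0.0912) and with every probe set tested (0.0761). The count of other immediate early genes that rose was lowest, at 8, with 16 subtracted, with every probe set tested or without DZNep replicate 2, and highest, at 16, under the crossed block. The alternatives also included filters on the dimmest 25% and 50% of genes, a trend in intensity (plain or robust), weights per array and averaging of probe sets; EGR3, NR4A1, NR4A2 and NR4A3 were removed by 1 or both filters. A scan batch was not tested, since the values used here name none. The causes of these shifts were not tested. The 2 arrays a group limit the precision of every value.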
